A study of Homo sapiens with 12 samples.

Results

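linc-ADAIN is a long intergenic non-coding RNA of human adipose cells, and 10 genes for RNA-binding proteins were followed here across the RNA-seq libraries of its knockdown (KD). Of these, ELAVL1, IGF2BP2, G3BP1, G3BP2, FXR2, FMR1, MATR3 and SFPQ encode proteins that the study listed in its RNA pull-down with linc-ADAIN, and IGF2BP1 and IGF2BP3 are paralogs of IGF2BP2. They were taken as the rows of the count table with these gene names, 10 of 28901 names in all, and each of the 10 passed the filter on low counts in every comparison. The cells were ASC52telo hTERT, a human stromal line from adipose tissue that telomerase keeps dividing, and they had been differentiated to adipocytes and harvested at day 14. The 4 groups carried scramble shRNA (the control, whose genotype label is WT) or linc-ADAIN shRNA (labelled Linc-ADAIN knockdown), and each was kept without or with 100 ng/mL of LPS, a bacterial endotoxin, for 4 h, with 3 libraries a group. Every group had received a lentiviral pLVX-shRNA2 vector and been sorted for its ZsGreen marker, and had been cultured in medium with insulin, dexamethasone, pantothenate and biotin, with isobutylmethylxanthine and rosiglitazone in the earlier phase. The knockdown rested on 1 cell line and a sorted pool for each hairpin. No separate donors or lines stand behind the replicates, and the study's legends give its RNA-seq as N = 1 in triplicate. The p-values here therefore measure the spread between samples of 1 experiment, which may be technical, and not between experiments. linc-ADAIN expression was not analysed here.

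Proteins of this kind decide how long an mRNA lasts and how much it is translated. ELAVL1, better known as HuR, binds AU-rich elements, which are common in mRNAs of cytokines and growth regulators, and usually stabilizes them. The IGF2BP proteins bind mRNAs through RRM and KH domains, read the m6A mark and protect their targets from decay, and IGF2BP1 and IGF2BP3 are best known from embryonic tissue and tumors. G3BP1 and G3BP2 nucleate stress granules, the fragile X family (FMR1, FXR1 and FXR2) holds translation in check, and MATR3 and SFPQ are nuclear proteins, of which SFPQ builds paraspeckles with NONO and PSPC1. HuR and IGF2BP proteins have been studied in fat cells, where mRNA stability bears on differentiation and on cytokine output, and this is the setting in which the study took up the linc-ADAIN pull-down.

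Estimated counts on named genes totalled between 28381782 and 53837400 per library, and log2 CPM (counts per 1e6 after scaling) of libraries of 1 group correlated with r of 0.984 to 0.993. The adipocyte genes ADIPOQ, FABP4 and PLIN1 were read in all groups, whereas LPL and LEP were under 1 CPM in the mean of scramble and of KD. The summed CPM of 10 adipocyte markers was 3264 to 4496 in scramble libraries and 644 to 1927 in KD libraries without LPS. With KD, 7 of the 10 were lower and none higher, where 15.1% of all genes tested were lower and 12.1% higher. ADIPOQ, FABP4 and PLIN1 had log2 fold changes of −1.39, −1.65 and −1.14. This is opposite to the study, which reported adiponectin, FABP4 and perilipin 1 among adipogenic markers raised by KD at day 14 in qPCR and western blots. The reason for this difference was not tested. Of 9 stromal markers tested, 4 were higher and 3 lower with KD, which is 77.8%, where 27.2% of all genes tested were higher or lower. THY1 and ENG were among the lower (log2 fold changes −2.37 and −1.36) and DPP4 among the higher (2.07). DLK1 was at 0 in every library. The summed CPM of 12 proliferation genes was 84.4 to 131 in scramble and 146 to 181 in KD without LPS, and that of 6 leukocyte and endothelial markers was 17.4 to 21.5 in scramble and 10.3 to 13.6 in KD. Of 5 leukocyte and endothelial markers tested, only 1 passed, VWF, which went from 9.67 ± 1.42 to 2.21 ± 0.397 CPM. The fall of this sum was thus mainly that of VWF. These marker levels moved with the KD comparisons given below, and their part in any of those results was not tested. All 10 genes of a list of LPS-induced genes were higher with LPS under either shRNA, where 5.9% of all genes tested were higher in scramble. The list was chosen with earlier results of these data known, so this is no independent check of the LPS label.

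To compare the genes with each other, counts were divided by the length of the canonical transcript and scaled to the same sum in every library, which gives a TPM-like level. In scramble libraries without LPS, SFPQ stood highest at 273 ± 9.94 (SD, n = 3), above 98.4% of genes with a length. MATR3 followed at 109 ± 2.57 and IGF2BP2 at 101 ± 6.97, and the libraries of this pair of genes overlapped. G3BP2 was at 93.3 ± 2.37 and G3BP1 at 66.3 ± 1.16, ELAVL1 at 26.4 ± 1.48 and IGF2BP3 at 18.6 ± 0.487. FXR2 at 16.0 ± 0.840 and FMR1 at 15.3 ± 1.32 also overlapped, and IGF2BP1 was lowest at 6.46 ± 0.639. The order depended in part on the length taken. With the union of all annotated exons, SFPQ (208), MATR3 (148) and IGF2BP2 (128) still led in scramble, but G3BP1 at 53.1 stood above G3BP2 at 45.9, and FXR2 at 17.3 above IGF2BP3 at 14.6. All 10 were therefore read well above the floor, and the neuronal relatives of HuR were not: ELAVL2, ELAVL3 and ELAVL4 had mean CPM of 0.0325, 0.172 and 0.0253 in scramble libraries.

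With the canonical transcript as length, SFPQ and MATR3 led in each group. IGF2BP2 was at rank 3 in scramble libraries, at rank 4 in scramble with LPS and in KD, and at rank 5 in KD with LPS (55.6 ± 1.33), below G3BP1. It overlapped G3BP2 and G3BP1 in scramble with LPS, and G3BP1 in KD. With the union of exons this change of rank was not seen, and IGF2BP2 was at rank 3 in all 4 groups (128, 88.5, 82.5 and 67.5 in scramble, scramble with LPS, KD and KD with LPS, where G3BP1 had 53.1, 51.6, 50.9 and 50.3). MATR3 then stood above SFPQ in KD (152 against 144, with overlap) and in KD with LPS (143 against 123, without). The order of IGF2BP3 and ELAVL1 in KD libraries also rested on the length, since IGF2BP3 was at 23.7 ± 1.66 and ELAVL1 at 22.5 ± 1.27 by the canonical transcript, with overlap, and at 17.9 ± 1.28 and 29.5 ± 2.09 by the union of exons, without.

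The first comparison asks whether loss of linc-ADAIN was accompanied by a change in the mRNAs of its pull-down partners without LPS. It concerns mRNA only: for the proteins, the study's western blots at day 14 showed no effect of KD on IGF2BP2 or HuR. By RNA immunoprecipitation the study found linc-ADAIN with HuR but not with IGF2BP2. Of the 10, 4 were lower and 1 was higher in linc-ADAIN KD than in scramble by edgeR's quasi-likelihood test at an adjusted p under 0.05, and none differed 2-fold. The 4 lower genes were IGF2BP2, SFPQ, ELAVL1 and G3BP2, and the higher one was IGF2BP3. This has to be read against a broad difference between the groups: of 16217 genes tested, 27.2% passed the same threshold, 12.1% as higher and 15.1% as lower, and 7.77% passed it with at least a 2-fold difference. Among the 6153 genes with at least the mean count of FXR2, the lowest of the 10 by counts, a set chosen after the values were seen, 41.8% passed and 28.5% did so as lower. The scramble and KD libraries did not overlap for 5 of the 10, and for 42.5% of all genes tested. In bulk RNA of this kind, fewer cells of a type and less RNA per cell cannot be told apart.

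**Figure D1:**
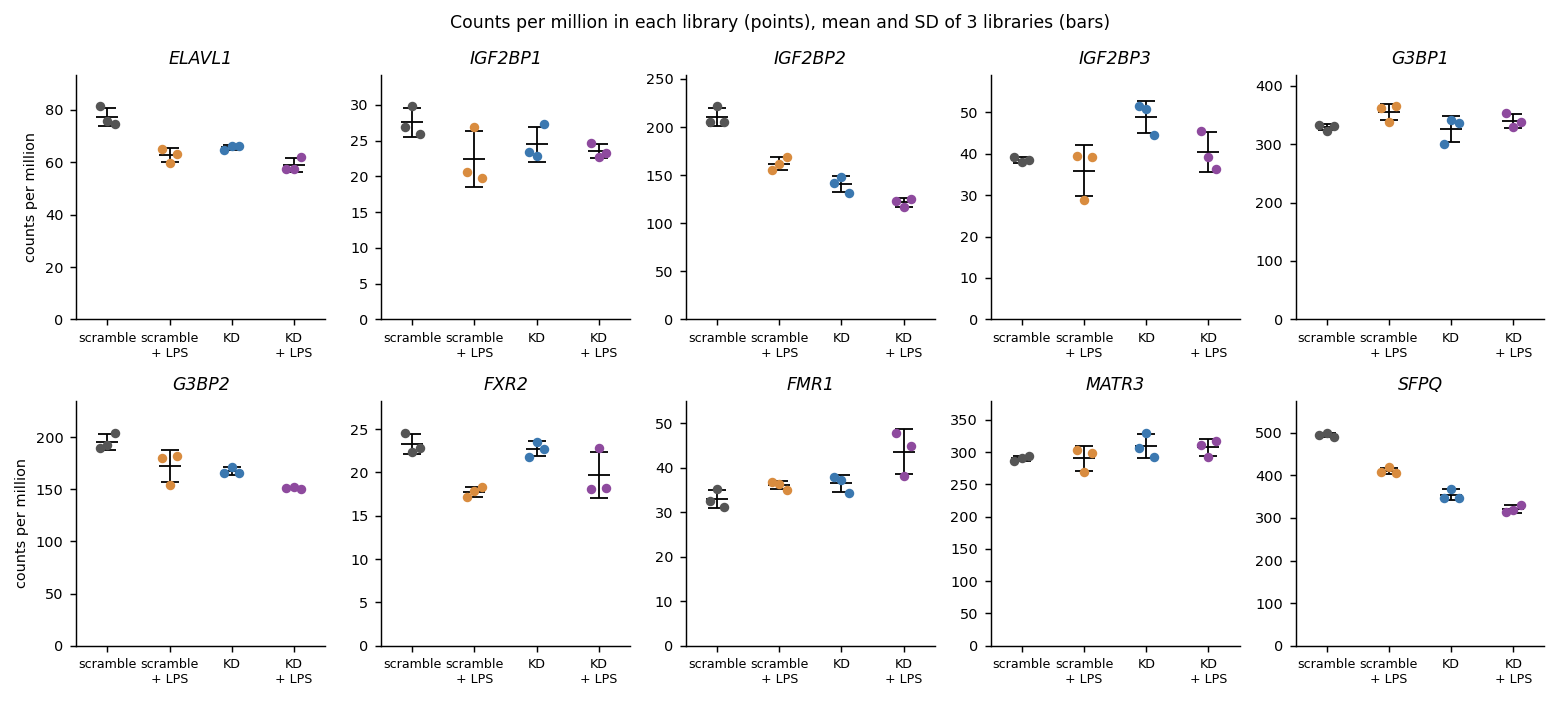
CPM after TMM scaling (y axis, from 0) for the 10 genes in the 12 libraries, by group (x axis: scramble, scramble with LPS, KD, KD with LPS). Points are libraries, and bars give the mean and SD of 3. IGF2BP2 and SFPQ were highest in the 3 scramble libraries and lowest in the 3 libraries of KD with LPS, whereas G3BP1 stayed between 299.7 and 365 throughout.

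IGF2BP2, the member of its family with the highest level in these cells, read 205, 221 and 205 CPM in scramble libraries and 142, 148 and 132 CPM in KD libraries. Every KD library was below every scramble library. The log2 fold change was −0.58 ± 0.075 (SE), a fall of 33.0%, with an adjusted p of 0.000134 by edgeR. IGF2BP3 went the other way, from 39.3, 37.9 and 38.4 CPM in scramble to 51.4, 50.8 and 44.5 CPM in KD, again without overlap. Its log2 fold change was 0.35 ± 0.085, a rise of 27.1%, with an adjusted p of 0.00970 by edgeR. IGF2BP1 read 26.9, 29.8 and 25.9 CPM in scramble and 23.3, 22.8 and 27.3 CPM in KD. The groups overlapped and the log2 difference of −0.17 ± 0.11 did not pass the test (adjusted p = 0.297).

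Because these paralogs are read in the same libraries, their ratio does not depend on how libraries are scaled. The ratio of IGF2BP2 to IGF2BP3 counts was 5.21, 5.84 and 5.34 in scramble and 2.76, 2.92 and 2.96 in KD libraries. With LPS it was 3.92, 5.61 and 4.28 in scramble and 2.69, 2.96 and 3.45 in KD. The KD libraries were below the scramble libraries in both settings. Per length of the canonical transcript, IGF2BP2 made up 80.2% ± 0.619 of the family's level in scramble and 69.8% ± 0.649 in KD, IGF2BP3 14.7% ± 0.752 and 24.3% ± 0.829, and IGF2BP1 5.10% ± 0.190 and 5.95% ± 0.926 (SD, n = 3). An exact permutation test of 3 libraries against 3 cannot give a two-sided p below 0.1, which the shares of IGF2BP2 and IGF2BP3 reached. Over the 44 share comparisons made within families, chosen after values were seen, 27 reached it and the lowest Benjamini-Hochberg adjusted p of these exact tests was 0.163.

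Since IGF2BP2 and IGF2BP3 differed in opposite directions, the 250 bases before the RefSeq start of each are shown, read on the strand of the gene (both lie on the minus strand of GRCh38.p14). IGF2BP2, which spans positions 185643130 to 185825042 of chromosome 3 in GENCODE, is preceded by chr3:185825043-185825292. IGF2BP3, at positions 23310209 to 23470491 of chromosome 7, is preceded by chr7:23470492-23470741. Capitals mark the motifs searched on both strands: the GC box GGGCGG (or CCGCCC), the CCAAT box CCAAT (or ATTGG), the TATA box TATAAA (or TTTATA) and the E box CACGTG, which is its own reverse complement.
IGF2BP2: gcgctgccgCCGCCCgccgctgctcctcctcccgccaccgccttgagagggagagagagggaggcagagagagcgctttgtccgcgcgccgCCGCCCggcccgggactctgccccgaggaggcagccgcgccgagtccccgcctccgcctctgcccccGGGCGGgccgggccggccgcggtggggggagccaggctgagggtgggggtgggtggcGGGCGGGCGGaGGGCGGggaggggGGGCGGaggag
IGF2BP3: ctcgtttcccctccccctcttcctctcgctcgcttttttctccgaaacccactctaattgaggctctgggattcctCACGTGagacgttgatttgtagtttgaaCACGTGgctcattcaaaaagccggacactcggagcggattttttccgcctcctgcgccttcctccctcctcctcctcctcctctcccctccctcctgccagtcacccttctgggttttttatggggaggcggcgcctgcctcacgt
The IGF2BP2 window was 81.6% G and C and held 7 GC box matches, of which a pair overlap by 2 letters, and no E box. The IGF2BP3 window was 56.8% G and C, held 2 E box matches and no GC box. Of 35116 windows of this length, 42.6% held a GC box, 32.0% a CCAAT box, 10.7% a TATA box and 6.345% this E box, and the median content of G and C was 58.0%. Of the 7 genes with an entry, the GC box was present in 5, the E box in IGF2BP3 and FMR1, the CCAAT box in G3BP1, with 4 matches, and the TATA box in none. A match describes letters only, and no binding was measured here. ELAVL1, IGF2BP1 and SFPQ are named without a sequence.

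SFPQ, the paraspeckle protein with the highest level of the 10 in scramble libraries, read 495, 500 and 490 CPM in scramble libraries and 348, 369 and 347 CPM in KD libraries. The groups lay far apart relative to their spread (SD 4.96 and 12.5 CPM). The log2 fold change was −0.48 ± 0.068, a fall of 28.2%, with an adjusted p of 0.000257 by edgeR. For its paraspeckle partners no difference passed the test: NONO was at 333 ± 3.43 CPM in scramble and 313 ± 5.45 in KD (adjusted p = 0.390), and PSPC1 at 43.3 to 50.9 CPM and 42.0 to 46.8 CPM (adjusted p = 0.673). The ratio of SFPQ to NONO counts was 1.48, 1.52 and 1.46 in scramble and 1.12, 1.20 and 1.09 in KD. MATR3, the other nuclear matrix protein among the 10, read 286, 291 and 294 CPM in scramble and 306, 330 and 293 CPM in KD, which overlapped. Its log2 difference of 0.09 ± 0.072 did not pass the test (adjusted p = 0.372). SFPQ counts were thus 1.67 to 1.73 times those of MATR3 in scramble libraries and 1.12 to 1.19 times in KD libraries.

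ELAVL1 read 81.3, 75.9 and 74.8 CPM in scramble and 64.5, 66.4 and 66.3 CPM in KD libraries. The libraries did not overlap. The log2 fold change was −0.23 ± 0.074, a fall of 14.8%, with an adjusted p of 0.0371 by edgeR. G3BP2 read 190, 193 and 204 CPM in scramble and 165, 172 and 166 CPM in KD, likewise without overlap. Its log2 fold change was −0.22 ± 0.071, a fall of 14.1%, with an adjusted p of 0.0382 by edgeR. Both calls lay near the threshold. Scaling by library size alone ended both and moved the log2 differences to −0.13 for ELAVL1 (adjusted p = 0.255) and −0.11 for G3BP2 (adjusted p = 0.277), and a replicate block ended both with little change in size (adjusted p = 0.0929 and 0.0923). The call on ELAVL1 was lost without KD replicate 1 or 3 or scramble replicate 1 or 2 (adjusted p from 0.0562 to 0.147), and that on G3BP2 was lost without any 1 of the 6 libraries but KD replicate 2 (adjusted p from 0.0591 to 0.103). The G3BP2 gene also overlaps USO1 on the opposite strand, and whether strand was used in counting is not given in the sources used here. USO1 differed in the same direction (log2 fold change −0.35, adjusted p = 0.00278), and its log2 difference with KD under LPS was −0.21. With LPS, the log2 differences of USO1 were 0.13 in scramble and 0.27 in KD, where those of G3BP2 were −0.17 and −0.14. Apart from that with KD without LPS, none of these USO1 differences passed the test. Whether reads of USO1 entered the G3BP2 counts was not tested.

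Of the remaining genes, G3BP1 read 332, 323 and 331 CPM in scramble and 299.7, 341 and 335 CPM in KD. Its log2 difference was −0.013 ± 0.075 (adjusted p = 0.927), and with scaling by library size alone it was 0.093. The G3BP1 to G3BP2 ratio of counts was 1.62 to 1.75 in scramble and 1.81 to 2.02 in KD libraries, with no overlap. FXR2 read 24.6, 22.3 and 22.9 CPM in scramble and 21.8, 23.6 and 22.8 CPM in KD, with a log2 difference of −0.030 ± 0.098 (adjusted p = 0.859) that was 0.075 with library size alone. FMR1 read 32.5, 35.1 and 31.2 CPM in scramble and 37.9, 37.4 and 34.4 CPM in KD. The groups overlapped and the log2 difference of 0.15 ± 0.090 did not pass the test (adjusted p = 0.242). FXR1, the third fragile X gene, was at 128 ± 7.30 CPM in scramble and 117 ± 6.56 in KD (adjusted p = 0.255).

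**Figure D2:**
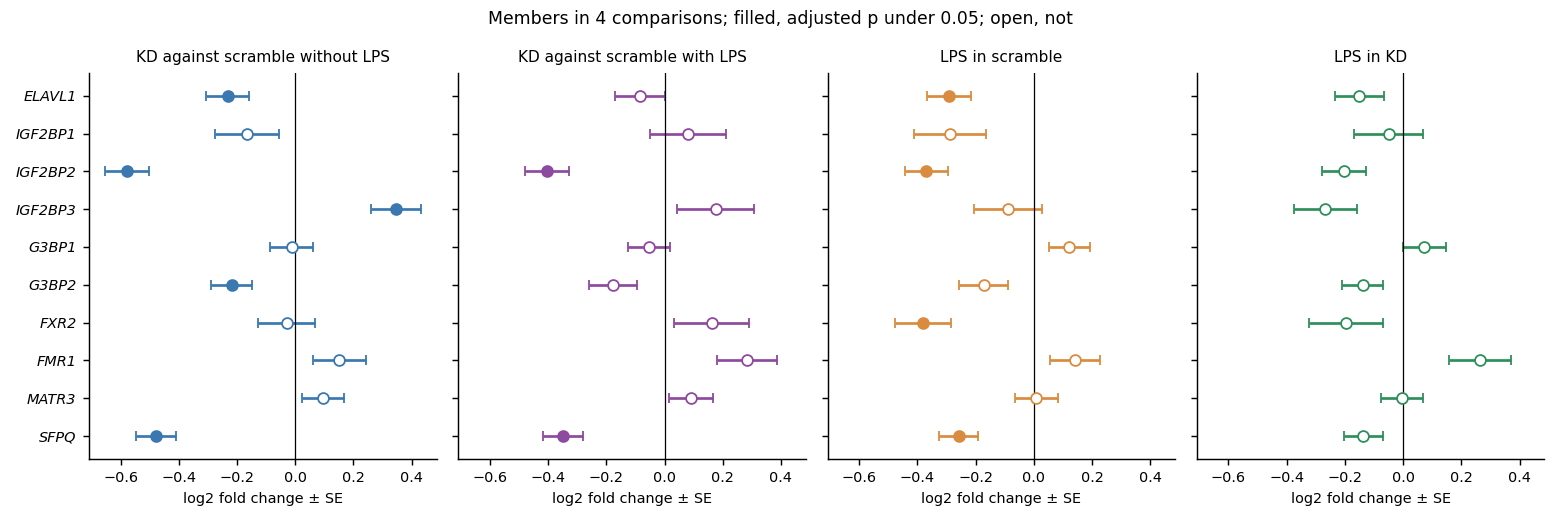
Log2 fold change with its SE (x axis) of the 10 genes (rows) in 4 comparisons of 3 libraries with 3. Filled points passed edgeR's test at an adjusted p under 0.05: 5 genes with KD without LPS, 2 with KD under LPS, 4 with LPS in scramble and none with LPS in KD.

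Among cells exposed to LPS, the same knockdown was accompanied by lower IGF2BP2 and SFPQ. These 2 of the 10 passed the test, both lower, where 26.9% of 15981 genes did, 12.7% as higher and 14.2% as lower, and 8.48% with at least a 2-fold difference, a size that none of the 10 reached. Among 6746 genes with at least the mean count of FXR2, the lowest of the 10 in these libraries, 41.8% passed. IGF2BP2 read 155, 162 and 168 CPM in scramble with LPS and 123, 116 and 126 CPM in KD with LPS, with no overlap. The log2 fold change was −0.40 ± 0.075, a fall of 24.5%, with an adjusted p of 0.00111 by edgeR. SFPQ read 407, 419 and 407 CPM in scramble with LPS and 313, 318 and 331 CPM in KD with LPS. It fell by 21.4%, with a log2 fold change of −0.35 ± 0.068 and an adjusted p of 0.00161 by edgeR. These libraries are separate from those of the comparison without LPS, although the hairpin and the cell pools were shared.

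The other 8 genes did not pass the test under LPS. ELAVL1 read 65.2, 59.7 and 63.3 CPM in scramble with LPS and 57.3, 57.5 and 61.9 CPM in KD with LPS. The groups overlapped, and the log2 difference of −0.084 ± 0.086 (adjusted p = 0.538) became 3.7e-07 with scaling by library size alone. IGF2BP3 read 39.6, 28.9 and 39.3 CPM in scramble with LPS and 45.6, 39.3 and 36.4 CPM in KD with LPS, where replicate 2 of scramble with LPS stood low (log2 difference 0.18 ± 0.13, adjusted p = 0.376). FMR1 read 36.8, 36.4 and 35.0 CPM against 47.9, 38.2 and 44.9 CPM, which did not overlap. Its log2 difference of 0.28 ± 0.10 missed the threshold with an adjusted p of 0.0608 by edgeR, and lay between 0.21 and 0.37 over the alternatives, with adjusted p from 0.0166 to 0.211. G3BP2 also did not overlap (180, 154 and 182 against 151, 153 and 151 CPM) without passing the test (log2 difference −0.18 ± 0.083, adjusted p = 0.140). The libraries did not overlap for 4 of the 10, where 40.5% of all genes tested showed no overlap.

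The second question is how the same mRNAs responded to 4 h of LPS. In scramble control cells, 4 of the 10 fell with LPS, namely IGF2BP2, FXR2, ELAVL1 and SFPQ, and none rose. Of 15920 genes tested, 14.3% passed, 5.9% as higher and 8.38% as lower, and 2.68% with at least a 2-fold difference, which none of the 10 reached. Among 6458 genes with at least the mean count of FXR2, 24.7% passed and 16.0% did so as lower. This comparison shares the 3 scramble libraries without LPS with the first one, so a high value in those libraries lowers both fold changes together.

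FXR2 read 24.6, 22.3 and 22.9 CPM in scramble and 17.1, 17.8 and 18.3 CPM in scramble with LPS. The libraries did not overlap. The log2 fold change was −0.38 ± 0.097, a fall of 23.2%, with an adjusted p of 0.0217 by edgeR. Within the fragile X family, FXR2 made up 25.4% ± 0.552 of the level per length in scramble and 18.6% ± 0.916 with LPS, and FXR1 50.3% ± 1.77 and 55.9% ± 0.738. FMR1 went from 33.0 ± 1.99 to 36.1 ± 0.918 CPM, with overlap (log2 difference 0.14 ± 0.086, adjusted p = 0.334). FXR2 lies on the short arm of chromosome 17, at positions 7591230 to 7614897 of the minus strand. Of 279 other genes tested on this arm, 12 were higher and 27 lower with LPS, with a median log2 fold change of −0.057, and for KD without LPS 18 of 286 were higher and 54 lower with a median of −0.034. In either direction these were 14.0% of the arm with LPS and 25.2% with KD, near the 14.3% and 27.2% of all genes tested. Of all genes, 5.9% were higher and 8.38% lower with LPS, and 12.1% higher and 15.1% lower with KD.

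IGF2BP2 fell from 205, 221 and 205 CPM to 155, 162 and 168 CPM with LPS, by 22.6% (log2 fold change −0.37 ± 0.073, adjusted p = 0.00539 by edgeR). ELAVL1 fell from 81.3, 75.9 and 74.8 CPM to 65.2, 59.7 and 63.3 CPM, by 18.3% (log2 fold change −0.29 ± 0.077, adjusted p = 0.0257 by edgeR). SFPQ fell from between 490 and 500 CPM to between 407 and 419 CPM, by 16.4% (log2 fold change −0.26 ± 0.067, adjusted p = 0.0249 by edgeR). None of these groups overlapped. The call on IGF2BP2 held in all 6 analyses that left out 1 library, with adjusted p from 0.0124 to 0.0440. Those on FXR2, ELAVL1 and SFPQ were each lost without scramble replicate 1 or 2 or replicate 3 of scramble with LPS, and also without replicate 1 (FXR2 and SFPQ) or 2 (ELAVL1) of scramble with LPS, with adjusted p from 0.0534 to 0.119.

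The stress granule pair did not pass the test with LPS, although their ratio moved. G3BP1 read 332, 323 and 331 CPM in scramble and 362, 339 and 365 CPM with LPS (log2 difference 0.12 ± 0.070, adjusted p = 0.304). G3BP2 read 190, 193 and 204 CPM and 180, 154 and 182 CPM (log2 difference −0.17 ± 0.083, adjusted p = 0.209). Neither overlapped, and G3BP1 counts were 1.62 to 1.75 times those of G3BP2 in scramble and 2.01 to 2.19 times with LPS. MATR3 was at 290 ± 3.99 and 290 ± 19.0 CPM, and its log2 difference of 0.0092 ± 0.075 (adjusted p = 0.959) was −0.030 with library size alone. IGF2BP1 was at 27.5 ± 2.01 and 22.4 ± 3.86 CPM (adjusted p = 0.155), and IGF2BP3 at 38.6 ± 0.682 and 35.9 ± 6.10 CPM (adjusted p = 0.699). In all, 6 of the 10 did not overlap between scramble without and with LPS, where 32.1% of all genes tested did not.

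**Figure D3:**
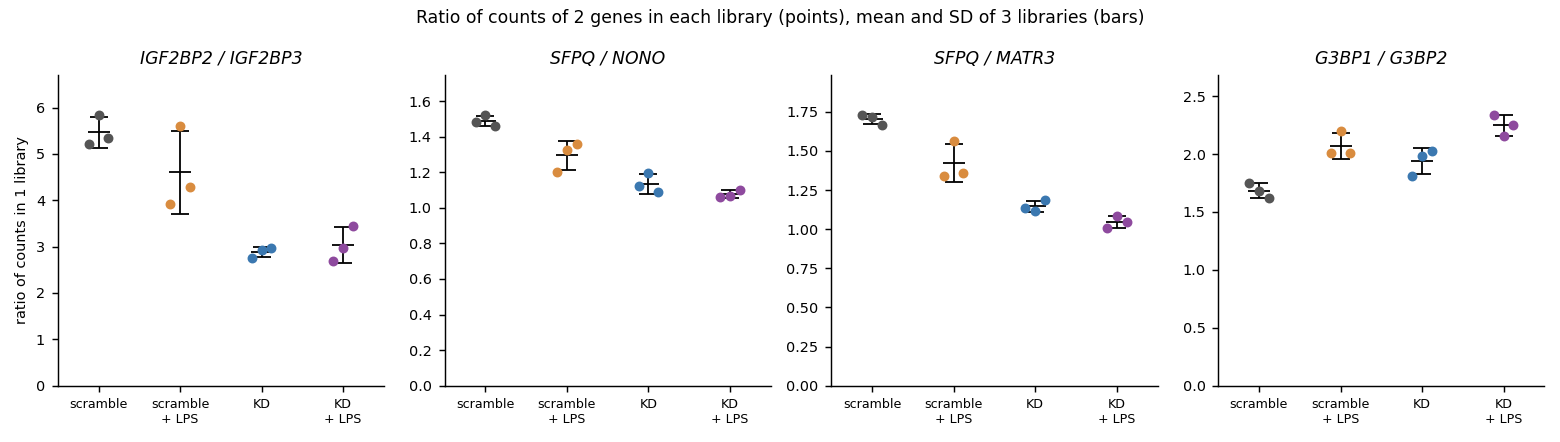
Ratio of the counts of a pair of genes within each library (y axis, from 0), by group (x axis), with points for libraries and bars for the mean and SD of 3. IGF2BP2 to IGF2BP3 was 5.21 to 5.84 in scramble and 2.76 to 2.96 in KD, and SFPQ to NONO 1.46 to 1.52 and 1.09 to 1.20, each without overlap.

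In KD cells, none of the 10 passed the test for LPS. By edgeR, 3 of them (IGF2BP2, IGF2BP3 and FMR1) had an unadjusted p under 0.05, and DESeq2 also called 0 at an adjusted p under 0.05. Of 16169 genes tested, 11.3% passed, and 2.25% with at least a 2-fold difference, and of the 6277 with at least the mean count of the lowest of the 10, 21.0% passed. IGF2BP2 read 142, 148 and 132 CPM in KD and 123, 116 and 126 CPM in KD with LPS, without overlap. Its log2 difference was −0.20 ± 0.077 (adjusted p = 0.116). FMR1 was at 36.6 ± 1.88 and 43.7 ± 4.97 CPM, also without overlap (log2 difference 0.26 ± 0.11, adjusted p = 0.149). ELAVL1 went from between 64.5 and 66.4 CPM to between 57.3 and 61.9 CPM (log2 difference −0.15 ± 0.085, adjusted p = 0.318). SFPQ went from between 347 and 369 CPM to between 313 and 331 CPM (log2 difference −0.14 ± 0.067, adjusted p = 0.251). FXR2 was at 22.7 ± 0.866 and 19.7 ± 2.67 CPM, with overlap through replicate 2 of KD with LPS. The libraries did not overlap for 5 of the 10, and for 27.1% of all genes tested.

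That 4 genes passed with LPS in scramble and none did in KD does not show that the LPS response differed. The difference itself, tested as the interaction over the 12 libraries, passed for none of the 10, with 0 at an unadjusted p under 0.05 by edgeR and 0 by DESeq2, where 1.28% of 17173 genes passed by edgeR. The interaction of IGF2BP2 was 0.18 ± 0.10 on the log2 scale (adjusted p = 0.545), that of ELAVL1 0.15 ± 0.10 (adjusted p = 0.649), that of FXR2 0.20 ± 0.16 (adjusted p = 0.721) and that of SFPQ 0.13 ± 0.088 (adjusted p = 0.624).

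Across the 12 libraries, the genes whose log2 CPM were most like that of IGF2BP2, among 11811 with a mean of at least 50 counts, were PAK2 (Pearson's r 0.988), SFPQ (0.985) and LRRC8B (0.984). For ELAVL1, CEP170 (0.973) and SPRY1 (0.971) were among the nearest. SFPQ is therefore both one of the 10 and among the 3 genes nearest to IGF2BP2. The r of IGF2BP2 with the others was 0.882 for G3BP2, 0.852 for ELAVL1, −0.724 for FMR1 and −0.290 for IGF2BP3. These values describe 12 points that share library scaling and fall into 4 groups, so they rest mainly on differences between groups.

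**Figure D4:**
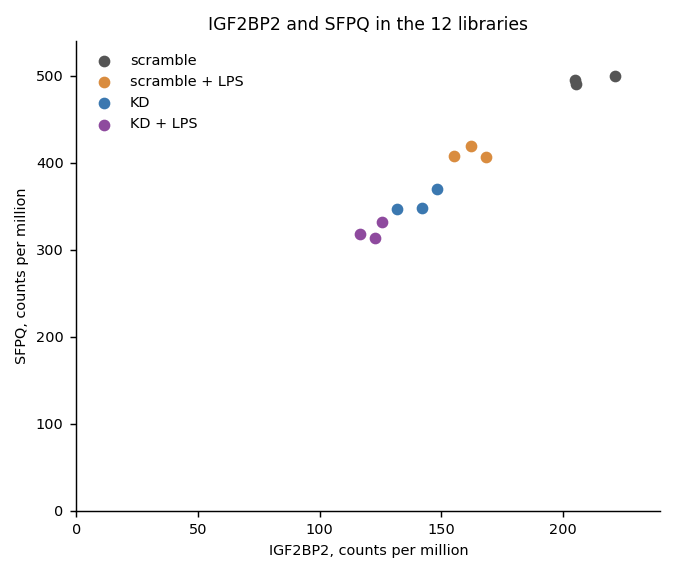
SFPQ (y axis) against IGF2BP2 (x axis) in CPM, with 1 point for each of the 12 libraries colored by group. The groups lay one below the other, from scramble (490 to 500 CPM of SFPQ) through scramble with LPS (407 to 419) and KD (347 to 369) to KD with LPS (313 to 331).

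The genes that work with the 10 were read from lists of known partners. The share of called genes in each list has to be set beside that of all genes with KD without LPS (27.2%, with 15.1% lower) and that of genes with at least the mean count of FXR2 (41.8%, with 28.5% lower). IGF2BP1 is known to share a complex on the coding region instability determinant of MYC mRNA with SYNCRIP, YBX1, HNRNPU and DHX9, and all 4 were lower with KD without LPS and with LPS (where 14.2% of all genes and 24.4% of those with at least the mean count of FXR2 were lower), with list medians of −0.28 and −0.28 where all genes had 0.024 and 0.025. SYNCRIP, an hnRNP that binds A-rich RNA, was at 380 to 392 CPM in scramble and 201 to 230 CPM in KD (log2 fold change −0.84 ± 0.075, adjusted p = 6.3e-06 by edgeR). YBX1, the cold shock protein that coats mRNA, went from 1256 ± 80.2 to 1021 ± 34.5 CPM (log2 fold change −0.30 ± 0.072, adjusted p = 0.00925). DHX9 was called at an adjusted p of 0.0495, just inside the threshold. With LPS, SYNCRIP and HNRNPU also fell in both scramble and KD, by log2 fold changes of −0.47 and −0.36 in scramble.

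Of 15 writers, erasers and readers of m6A, the mark that IGF2BP proteins read, 1 was higher and 2 were lower with KD without LPS (list median −0.081). These 3 of 15 are a smaller share than that of all genes, so the count is no result about m6A genes. ALKBH5, a demethylase that removes the mark, was at 160 to 191 CPM in scramble and 71.5 to 82.6 CPM in KD (log2 fold change −1.20 ± 0.089). ZC3H13, a part of the writer complex, fell by 0.40 on the log2 scale, and WTAP, another part, rose by 0.58 ± 0.085. WTAP also rose with LPS in scramble, from 146 ± 12.1 to 357 ± 23.0 CPM. The methyltransferases METTL3 and METTL14 did not pass the test (log2 differences 0.062 and −0.19).

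Of 16 other stress granule proteins, 1 was higher and 6 were lower with KD without LPS, with a list median of −0.13. These 43.8% lie near the 41.8% of genes with at least the mean count of FXR2. ATXN2, EIF4G1 and UBAP2L, the last a partner of the G3BP proteins, fell by 0.41, 0.40 and 0.33 on the log2 scale. TIA1, a classic granule marker, rose by 0.29. CAPRIN1 and USP10, the direct partners of G3BP, did not pass without LPS (log2 differences −0.13 and −0.22). Of 7 fragile X relatives and partners, 3 were lower: EIF4E, the cap-binding protein, with a log2 fold change of −0.55 ± 0.074 (147 ± 2.88 to 101 ± 6.39 CPM), and NUFIP1 and NUFIP2. These 3 are 42.9% of the list, again near that background. Of 9 other paraspeckle genes tested, edgeR called 0 in each of the 4 comparisons of groups. At an unadjusted p under 0.05 there were 2 with KD without LPS, 4 with KD under LPS and 0 with LPS under either shRNA, and DESeq2 called 2 with KD under LPS, HNRNPH3 among them, and 0 in the other comparisons. That SFPQ was called where these were not is a difference between genes that was not itself tested. Of 103 other proteins of the pull-down list that were tested, 4 were higher and 29 lower, with a median of −0.13. The 32.0% called lie between the 27.2% of all genes and the 41.8% of the more highly counted ones. Among these, CAVIN2, a caveolar protein, fell by 2.22 ± 0.51 and GPAM, a lipid synthesis enzyme, by 1.31 ± 0.11 on the log2 scale. They are not classic RNA-binding proteins. CAVIN2 was low, at 2.00 to 4.35 CPM in scramble and 0.374 to 1.33 CPM in KD. GPAM was at 537 to 679 CPM in scramble and 206 to 273 CPM in KD.

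**Figure D5:**
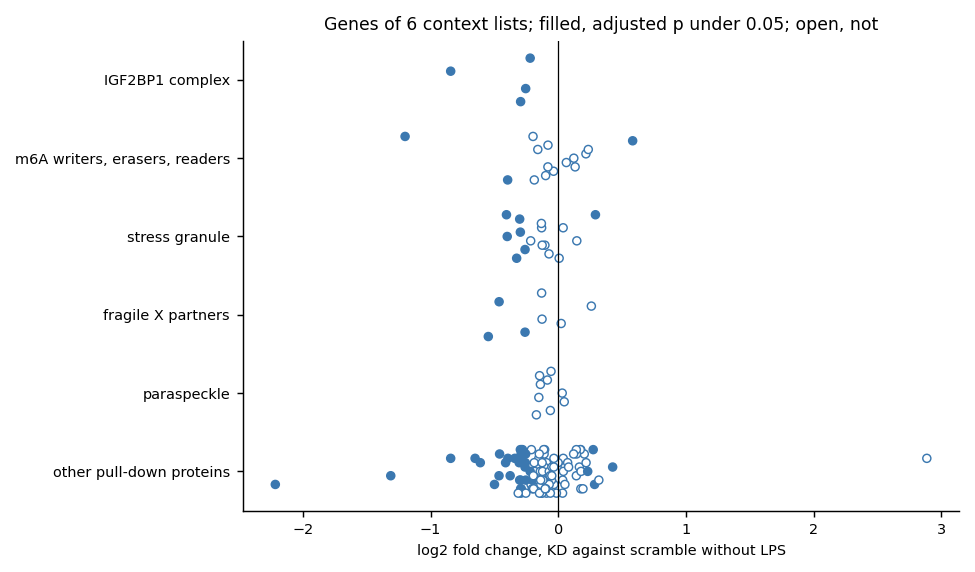
Log2 fold change of linc-ADAIN KD against scramble without LPS (x axis) for the genes of 6 lists (rows), 1 point a gene, filled where edgeR's adjusted p was under 0.05. The 4 genes of the IGF2BP1 complex were filled and below 0, and no paraspeckle gene was filled.

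Of the mRNAs that the study followed as possible targets of HuR and IGF2BP2, CXCL8 (IL-8), KLF5 and IL6 were higher with KD without LPS, with log2 fold changes of 1.63 ± 0.089, 2.33 ± 0.36 and 0.78 ± 0.097. KLF5 was low, at 0.589 to 0.855 CPM in scramble and 2.23 to 4.88 CPM in KD. CXCL8 was at 123 to 152 CPM in scramble and 429 to 441 CPM in KD, and IL6 at 46.5 to 56.1 and 80.6 to 95.8 CPM. CCL2, a chemokine, did not pass the test without LPS (log2 difference −0.15 ± 0.18, adjusted p = 0.593). MYC, a known target of IGF2BP proteins, went from 397 to 423 CPM in scramble to between 265 and 304 CPM in KD (log2 fold change −0.50 ± 0.076, adjusted p = 0.000400 by edgeR). GAPDH differed by 0.053 ± 0.085 and did not pass the test. These are mRNA levels, and neither protein levels nor binding were measured in these libraries.

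Some reads of the 10 genes could come from other places in the genome. G3BP1, FXR2, IGF2BP3 and MATR3 also overlap genes of the opposite strand, of which SIL1 beside MATR3 was lower with KD under LPS (log2 fold change −0.44, adjusted p = 0.00152) where MATR3 was not. The processed copies MATR3P1 and SFPQP1 had 0 counts in every library and G3BP1P1 at most 11. The annotation gives the name MATR3 to 2 gene entries, which share 1 row of the table. Genes within 5 Mb of IGF2BP2 had a median log2 fold change of −0.15 with KD without LPS, 3 of 61 higher and 16 lower, and those near SFPQ 0.15, with 19 of 112 higher and 13 lower. In either direction, 31.1% of the genes near IGF2BP2 and 28.6% of those near SFPQ were called. Of all genes tested, 27.2% were called, 12.1% as higher and 15.1% as lower. The calls near IGF2BP2 were mostly lower, the direction of IGF2BP2 itself, whereas those near SFPQ were more often higher. Whether position had a part in these differences was not tested.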

How the data were processed

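Libraries were made by the study with a stranded mRNA kit and sequenced on an Illumina NextSeq. Per the labels and the study's methods, the authors assigned reads to GRCh38 transcripts with kallisto 0.44.0 and deposited estimated counts per gene name (whole numbers, not normalized for library size or length). The annotation release, the summing program and the use of strand are not given in the sources used here. Per the submitters' processing notes, bcl2fastq 2.19 and DESeq2 1.32.0 were also used. The row that names no gene, 0.235% to 0.306% of each library, was excluded.

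Counts were rounded and tested in R 4.3.3 with edgeR 4.0.16 (TMM scaling, quasi-likelihood F test, Benjamini-Hochberg adjustment over all genes tested). A gene was tested where its counts summed to 10 or more across the 6 libraries compared (12 for the interaction), and called at an adjusted p under 0.05. The SE is the log2 fold change divided by the square root of F. CPM uses TMM scaling over the 12 libraries. Groups came from the labels, and no library was left out. The 10 genes and all lists were chosen with earlier results of these data known. Named by rule were the 10, up to 3 called genes of each list with the largest fold change and a mean of at least 50 counts, a few genes the study followed or that partner the 10, and the 3 genes most correlated with IGF2BP2 and with ELAVL1 (1 of these is not reported here). DHX9, METTL3, METTL14, TIA1, CAPRIN1, USP10, USO1 and SIL1 were named after their values were seen. Transcript lengths and positions are from GENCODE release 44, promoter windows from RefSeq on GRCh38.p14. The fits were tested on simulated data. Alternatives were DESeq2 1.42.0, RLE or library size scaling, looser and stricter count filters, a fit on 12 libraries, a replicate block, and each library left out. The background among genes with at least the lowest mean count of the 10 was added after the data were seen. Counting error and replicate spread both enter the edgeR fit.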

Additional observations from a re-analysis of the deposited data

How the results depend on the processing

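Of 50 results on single genes (10 genes in 4 comparisons and the interaction), 30 kept their direction and side of the threshold in every alternative, 5 lost and 4 gained a call in at least 1, and 11 changed sign in at least 1. The calls on IGF2BP2 (KD without and with LPS, LPS in scramble), on SFPQ (KD without and with LPS) and on IGF2BP3 (KD without LPS) held in all 13 alternatives, and those on ELAVL1 and G3BP2 with KD without LPS were lost in 6 and 7. Genes called with KD without LPS numbered 3 of the 10 with scaling by library size only, and 3 to 5 without 1 library. With LPS in scramble, leaving out 1 library gave 1 to 4 of the 10 and 1187 to 2106 of all genes. The 1187 were called without scramble replicate 2, and 1461 were called without replicate 3 of scramble with LPS. Of the 10, 1 was called without scramble replicate 1, without scramble replicate 2 or without replicate 3 of scramble with LPS, and 2 without replicate 1 of scramble with LPS. With LPS in KD, library size only called 1 of the 10, IGF2BP2 (log2 fold change −0.26, adjusted p = 0.0450). The interaction called 219 genes, 475 by DESeq2, 431 with a filter of at least 1 count, and 92 to 243 without 1 library. The cause of these differences was not tested.

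Library size only moved the median log2 fold change of all genes from 0.024 to 0.13 (KD without LPS) and from 0.025 to 0.11 (KD with LPS), and the share of calls that were higher from 44.5% to 61.4%, from 47.2% to 59.2% and, for LPS in KD, from 46.9% to 35.2%. With a filter of at least 1 count the share of higher calls of the interaction went from 74.0% to 61.7%. The 11 results that changed sign were all smaller than their SE in the reported fit. With library size only, the log2 difference of KD without LPS became 0.093 for G3BP1 and 0.075 for FXR2, that of KD with LPS 3.7e-07 for ELAVL1 and 0.031 for G3BP1, and that of LPS in scramble −0.030 for MATR3, which was −0.0038 in the fit on 12 libraries. The interaction of MATR3 was 0.0010 and became −0.0051 by DESeq2, −0.0047 with RLE scaling, −0.0073 with filterByExpr, −0.026 with library size only and −0.0090 with at least 1 count. Without 1 library, the ranges that crossed 0 were, with KD without LPS, −0.047 to 0.040 for G3BP1 and −0.058 to 0.011 for FXR2; with KD under LPS, −0.0024 to 0.22 for IGF2BP1; with LPS in scramble, −0.16 to 0.047 for IGF2BP3 and −0.026 to 0.065 for MATR3; with LPS in KD, −0.11 to 0.034 for IGF2BP1 and −0.044 to 0.033 for MATR3; and for the interaction, −0.027 to 0.087 for G3BP2 and −0.053 to 0.036 for MATR3.

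The correlation of the deviations of same-numbered replicates was −0.115 to −0.038 with KD without LPS, 0.0085 to 0.187 with KD under LPS, 0.0901 to 0.273 with LPS in scramble and −0.127 to 0.120 with LPS in KD. In none of these was every pair over 0.1, so the numbers were not taken as a pairing. With the replicate block, 3 of the 10 were called with KD without LPS (ELAVL1 and G3BP2 lost), 3 with KD under LPS (FMR1 gained), 5 with LPS in scramble (IGF2BP1 gained) and 0 with LPS in KD. With the union of exons as gene length, 37 of 40 TPM-like levels moved by more than 1 SD. ELAVL1 and G3BP2 with KD, and ELAVL1, FXR2 and SFPQ with LPS in scramble, needed most of the 6 libraries to pass.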
